A study of Mus musculus with 20 samples.

Results

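The mitochondrial ribosomal protein genes are described here across mouse oocytes and early embryos. They were taken as every gene whose symbol reads Mrpl or Mrps, then a number and at most 1 further letter, which gave 76 of the 23309 gene symbols measured. The 76 genes comprise 47 Mrpl genes, named for the large subunit, and 29 Mrps genes, named for the small subunit. The rule used names only and no measured value.

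The mitochondrial ribosome translates the few mRNAs encoded by mitochondrial DNA, which specify core subunits of the respiratory chain and ATP synthase. All of its proteins are encoded in the nucleus, translated in the cytosol and imported into the organelle. Some of its proteins have a counterpart in the bacterial ribosome and others exist only in mitochondria. The oocyte supplies all mitochondria of the embryo, and its growth stage mRNAs are in large part degraded during meiotic maturation and early cleavage. BTG4 is an oocyte adaptor protein that brings the CCR4-NOT deadenylase to maternal mRNAs. Erk is the label's name for the gene targeted in the second experiment, a kinase of the MAP kinase pathway.

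The samples were RNA-seq libraries from ICR mice, each made from 60 pooled oocytes or embryos of females aged 21 to 23 days given PMSG and hCG. Germinal vesicle (GV) oocytes, which are arrested in meiotic prophase, oocytes arrested in metaphase of meiosis II (MII), zygotes and 2-cell embryos were each collected as Btg4-/- and as wild type (WT), with 2 libraries in each of these 8 groups. A separate experiment held 1 library each of Erk-/- and WT oocytes at GV and at MII. The sources used here give neither the Btg4 and Erk alleles nor any Cre driver, the Erk gene removed or the genotype of the male parent. Because nothing says that the 2 libraries of a group came from separate animals, the p-values measure only the spread between these libraries, which may be technical.

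Values are FPKM, fragments mapped to a transcript scaled by its length and by the library's mapped total, as the authors deposited them. Depth estimated from the deposited intervals was 2790000 to 4970000 fragments per library for Btg4 samples and 5770000 to 8540000 for Erk samples. Btg4 mRNA was 1980 and 1881 FPKM in Btg4-/- GV oocytes against 1450 and 1673 FPKM in WT GV oocytes, 172 and 191 FPKM in Btg4-/- MII oocytes against 415 and 406 FPKM in WT MII oocytes, 139 and 164 FPKM in Btg4-/- zygotes against 610.3 and 559.5 FPKM in WT zygotes, and 3514 and 3632 FPKM in Btg4-/- 2-cell embryos against 1147 and 964 FPKM in WT 2-cell embryos. Summed over its locus this mRNA therefore does not check the genotype labels, and Btg4-/- below means libraries labelled so. All 10 oocyte marker genes exceeded 1 FPKM in every library. These are bulk samples, so fewer transcripts per cell and fewer cells cannot be told apart.

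Promoter stretches of 4 members are shown as examples of genes with the patterns described below: Mrps33 was higher in Btg4-/- at MII and later, Mrpl3 was lower in Btg4-/- zygotes and higher in Btg4-/- 2-cell embryos, Mrps9 was lower in Btg4-/- MII oocytes and zygotes, and Mrpl14 was the most abundant member in GV oocytes. They were picked after these values were seen, and no link between the sequences and the patterns was tested. Each runs from 150 bases before to 50 bases after the annotated start, 5′ to 3′ on the gene's strand, from RefSeq on build GRCm38.p6. Capitals mark a match to CCGGAAG or its reverse complement CTTCCGG, the core bound by ETS factors including GABP, a known regulator of mitochondrial genes. Mrps33 lies at chr6:39810887-39811086 on the minus strand, Mrpl3 at chr9:105053118-105053317 on the plus strand, Mrps9 at chr1:42851083-42851282 on the plus strand and Mrpl14 at chr17:45686199-45686398 on the plus strand.
Mrps33: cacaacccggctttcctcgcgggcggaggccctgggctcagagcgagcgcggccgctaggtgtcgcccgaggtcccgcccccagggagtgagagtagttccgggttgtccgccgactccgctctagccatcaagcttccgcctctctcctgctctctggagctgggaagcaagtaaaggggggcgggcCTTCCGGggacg
Mrpl3: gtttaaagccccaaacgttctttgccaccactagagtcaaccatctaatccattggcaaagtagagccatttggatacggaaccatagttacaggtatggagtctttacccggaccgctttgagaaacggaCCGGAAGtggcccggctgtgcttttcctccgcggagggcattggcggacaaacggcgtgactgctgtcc
Mrps9: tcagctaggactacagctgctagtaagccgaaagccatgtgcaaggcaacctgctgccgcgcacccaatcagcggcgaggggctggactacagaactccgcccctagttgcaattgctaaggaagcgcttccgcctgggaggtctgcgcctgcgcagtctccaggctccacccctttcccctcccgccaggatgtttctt
Mrpl14: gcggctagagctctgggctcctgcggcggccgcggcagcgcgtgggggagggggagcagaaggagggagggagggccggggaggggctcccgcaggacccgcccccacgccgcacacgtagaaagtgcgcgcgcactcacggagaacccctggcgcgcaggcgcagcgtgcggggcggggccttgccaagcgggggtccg

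RefSeq promoters, 250 bases before to 50 bases after the start, were matched by symbol for 67 of the 76 genes (73 promoters). On either strand, CCGGAAG was present in 32.9% of these promoters and in 8.86% of all 32851 promoters in the table. The NRF1 core GCGCATG was present in 11.0% of the members' promoters and 3.91% of all. The YY1 core ATGGCGG was present in 17.8% of the members' promoters and 4.05% of all, and TATAAA in 6.85% of the members' promoters and 13.6% of all. These letter matches are a description and show no bound site. The genes not matched were Mrpl4, Mrpl13, Mrpl15, Mrpl19, Mrpl38, Mrpl54, Mrps28, Mrps34 and Mrps35.

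Members differed widely in level. Their summed FPKM was 8062 and 6926 in Btg4-/- GV oocytes and 7162 and 6654 in WT GV oocytes, with a median member at 45.9 FPKM in Btg4-/- and 48.8 FPKM in WT. Mrpl14, a large-subunit protein with a bacterial counterpart, led at 1666 and 1323 FPKM in Btg4-/- GV oocytes and 1318 and 1136 FPKM in WT GV oocytes. Over the 16 libraries of the Btg4 experiment the highest mean levels were those of Mrpl14, Mrpl48 and Mrpl32. The lowest were those of Mrpl19 at 0.74 FPKM, Mrps34 at 0.81 FPKM and Mrpl17 at 3.56 FPKM. The heatmap of all members sets these levels side by side.

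**Figure D1:**
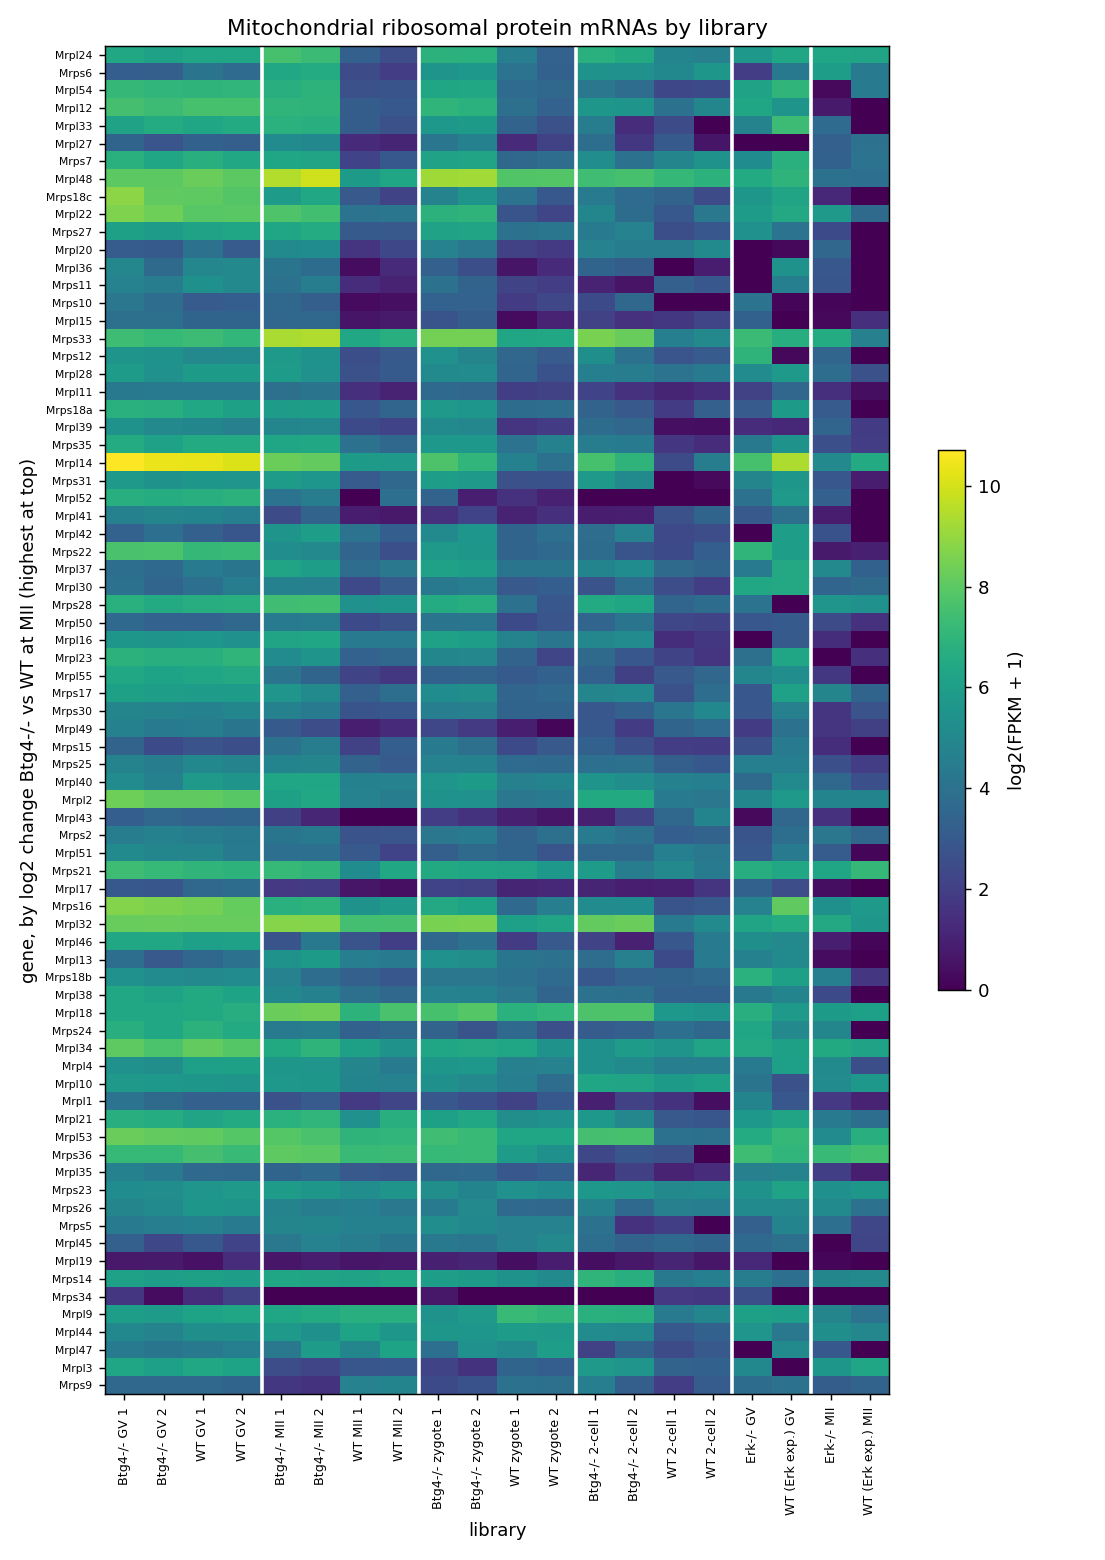
Level of each of the 76 genes (rows, ordered by the change between Btg4-/- and WT at MII) in each of the 20 libraries (columns), as log2(FPKM + 1) by colour. Most rows are darker in WT than in Btg4-/- at MII and zygote, while Mrps9 in the bottom row is the reverse.

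In GV oocytes few members passed the test between genotypes. None of the 76 was higher and 2 were lower in Btg4-/- oocytes, against 1.45% higher and 6.46% lower of the 12311 genes tested (limma on log2(FPKM + 1), Benjamini-Hochberg adjusted p under 0.05); 10 members had an unadjusted p under 0.05. The median log2 change was -0.03 for the members and -0.12 for all genes tested. The libraries of the 2 genotypes did not overlap for 21 members that were above and 16 that were below WT, against 16.5% and 36.4% of all genes. The direction depended on the scaling: with median-ratio scaling the members' median was 0.20, with 60 of 76 above 0 against 36 as deposited, the median of all genes was 0.00, and 3.57% of genes were called higher and 3.09% lower. Mrpl4, the counterpart of bacterial L4, was at 41.9 and 37.9 FPKM in Btg4-/- and 65.2 and 67.0 FPKM in WT, a log2 change of -0.72 (SE 0.16, adjusted p = 0.0169). Mrpl40, a protein found only in mitochondria, was at 35.0 and 25.2 FPKM in Btg4-/- and 54.0 and 45.2 FPKM in WT, a log2 change of -0.71 (SE 0.17, adjusted p = 0.0278). Neither call was kept when libraries were scaled by the median ratio (limma adjusted p = 0.117 for Mrpl4 and 0.121 for Mrpl40), without WT library 1 (0.093 and 0.197), without WT library 2 (0.104 and 0.066) or without Btg4-/- library 2 (0.124 and 0.227). Mrpl24, Mrps14, Mrps30 and Mrps31 were the abundant members nearest to no change, with log2 changes between -0.02 and 0.03.

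At MII most members were higher in Btg4-/- oocytes. Of the 76, 57 were higher, 1 was lower and 18 did not pass, where 29.1% of all genes tested were higher and 23.3% lower. The median log2 change was 1.69 for the members and 0.09 for all genes tested. Their summed FPKM was 6317 and 6605 in Btg4-/- MII oocytes and 1832 and 2104 in WT MII oocytes, which is 1.32% and 1.40% of the summed FPKM of all genes in Btg4-/- and 0.513% and 0.554% in WT. The groups did not overlap for 66 members that were higher and 3 that were lower, against 40.7% and 32.5% of all genes. Blood markers summed to 1.5 and 0.0 FPKM in Btg4-/- MII oocytes and 85.0 and 50.3 FPKM in WT MII oocytes (1 and 0 of 6 genes at 1 FPKM or more in Btg4-/-, 3 and 2 in WT), and their part in the result was not tested. With each of the 16 libraries left out in turn, 53 to 59 members were called higher.

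**Figure D2:**
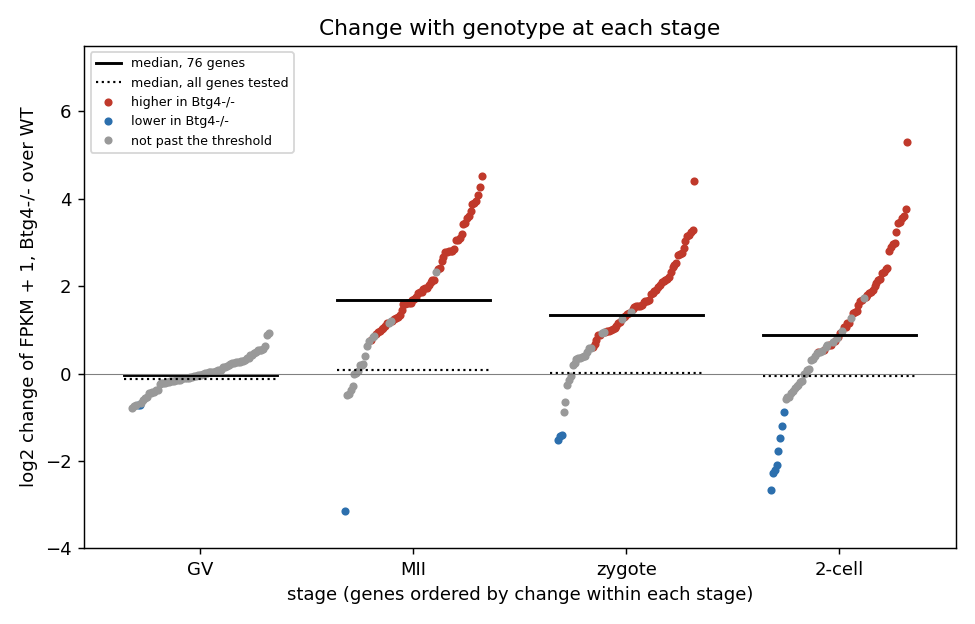
Log2 change of FPKM + 1, Btg4-/- over WT, of each member at the 4 stages, ordered within a stage; colour gives the limma call, the solid line the median of the 76 genes and the dotted line that of all genes tested. The cloud lies around 0 at GV, has a median of 1.69 at MII and 1.34 in zygotes, and in 2-cell embryos has a median of 0.88 with a lower tail of 8 genes.

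The genes with the largest differences at MII came from both subunits. Mrpl24, the counterpart of a bacterial protein at the mouth of the exit tunnel, was at 192 and 154 FPKM in Btg4-/- oocytes and 8.62 and 4.85 FPKM in WT oocytes. Its log2 change was 4.53 (SE 0.33, adjusted p = 1.51e-07). Mrps6, the S6 counterpart in the small subunit, was at 84.1 and 93.7 FPKM in Btg4-/- and 4.48 and 2.89 FPKM in WT, a log2 change of 4.28 (adjusted p = 6.35e-08). In both genes the lower Btg4-/- library exceeded the higher WT library by a wide margin, but each shares exons with another gene. Mrps6 does so with Slc5a3 and Gm49711 on the same strand, where strand could not separate the reads. Mrpl24 does so with Rrnad1 on the opposite strand, and the strand of the libraries is not given. Reads of the overlapping genes therefore cannot be told apart.

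Mrpl54, specific to mitochondria, was at 104 and 120 FPKM in Btg4-/- MII oocytes and 5.35 and 5.95 FPKM in WT MII oocytes (log2 change 4.09, SE 0.16, adjusted p = 1.02e-09). Mrpl12, the L7/L12 stalk protein that contacts the translation factors, was at 127 and 124 FPKM in Btg4-/- and 7.88 and 6.67 FPKM in WT (log2 change 3.94, adjusted p = 7.31e-08). Mrpl33 and Mrpl27, counterparts of bacterial L33 and L27, had log2 changes of 3.90 and 3.88, and exons of Mrpl27 overlap Eme1. Mrps7, the S7 counterpart in the head of the small subunit, had one of 3.72 and overlaps Gga3 and Mif4gd. Mrpl48 was the most abundant member in Btg4-/- MII oocytes at 712 and 961 FPKM, against 56.7 and 79.3 FPKM in WT MII oocytes (log2 change 3.61, adjusted p = 5.21e-09); Mrpl48 has a pseudogene and shares exons with Rab6a.

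Members with well known roles were among those higher. Mrps12, the S12 counterpart at the decoding centre, was at 52.4 and 43.1 FPKM in Btg4-/- MII oocytes and 5.01 and 6.94 FPKM in WT MII oocytes (log2 change 2.81, adjusted p = 1.8e-05). Mrps22 and Mrps16, in which human mutations cause mitochondrial disease, had log2 changes of 2.10 and 1.26; after the length correction described below Mrps16 was at 0.59 (adjusted p = 0.0674). The S18 family has 3 members, of which Mrps18a sits in the large subunit and Mrps18b and Mrps18c in the small one. They had log2 changes of 2.78, 1.16 and 3.55 and all 3 passed the test, though Mrps18b did not with only the compared groups fitted (adjusted p = 0.108). Mrps30, which despite its name sits in the large subunit, was at 24.7 and 20.0 FPKM in Btg4-/- and 5.78 and 6.60 FPKM in WT (log2 change 1.70, adjusted p = 5.36e-05). Mrps36, now known as a component of 2-oxoglutarate dehydrogenase rather than of the ribosome, was at 264 and 246 FPKM in Btg4-/- and 147 and 157 FPKM in WT and did not pass (adjusted p = 0.304, or 0.00968 with only the compared groups fitted).

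A single member was lower at MII. Mrps9, whose bacterial counterpart reaches the tRNA in the P site, was at 2.31 and 2.01 FPKM in Btg4-/- oocytes and 25.8 and 27.8 FPKM in WT oocytes, a log2 change of -3.14 (SE 0.39, adjusted p = 2.09e-05). Both Btg4-/- libraries were below both WT libraries. Mrpl3, the L3 counterpart near the catalytic centre, was at 4.79 and 3.67 FPKM in Btg4-/- and 6.18 and 6.44 FPKM in WT and did not pass (adjusted p = 0.078). It was called lower with median-ratio scaling (adjusted p = 0.0368), quantile normalization (0.0374), constant-sum scaling (0.00504), the length correction (0.0101) and the replicate block (0.0317). Mrps14, Mrps5, Mrps26 and Mrpl9 were the abundant members nearest to no change, for example Mrps14 at 79.5 and 74.4 FPKM in Btg4-/- and 70.1 and 82.3 FPKM in WT. Mrpl9 was called lower with quantile normalization (log2 change -0.64, adjusted p = 0.00878), constant-sum scaling (-0.64, 0.0074) and the length correction (-0.69, 0.00284). Mrpl44, of the fixed set, was at 53.2 and 40.6 FPKM in Btg4-/- and 73.3 and 50.2 FPKM in WT and did not pass. It was called lower with quantile normalization (log2 change -0.73, adjusted p = 0.00826), constant-sum scaling (-0.73, 0.00807) and the length correction (-0.67, 0.00964).

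**Figure D3:**
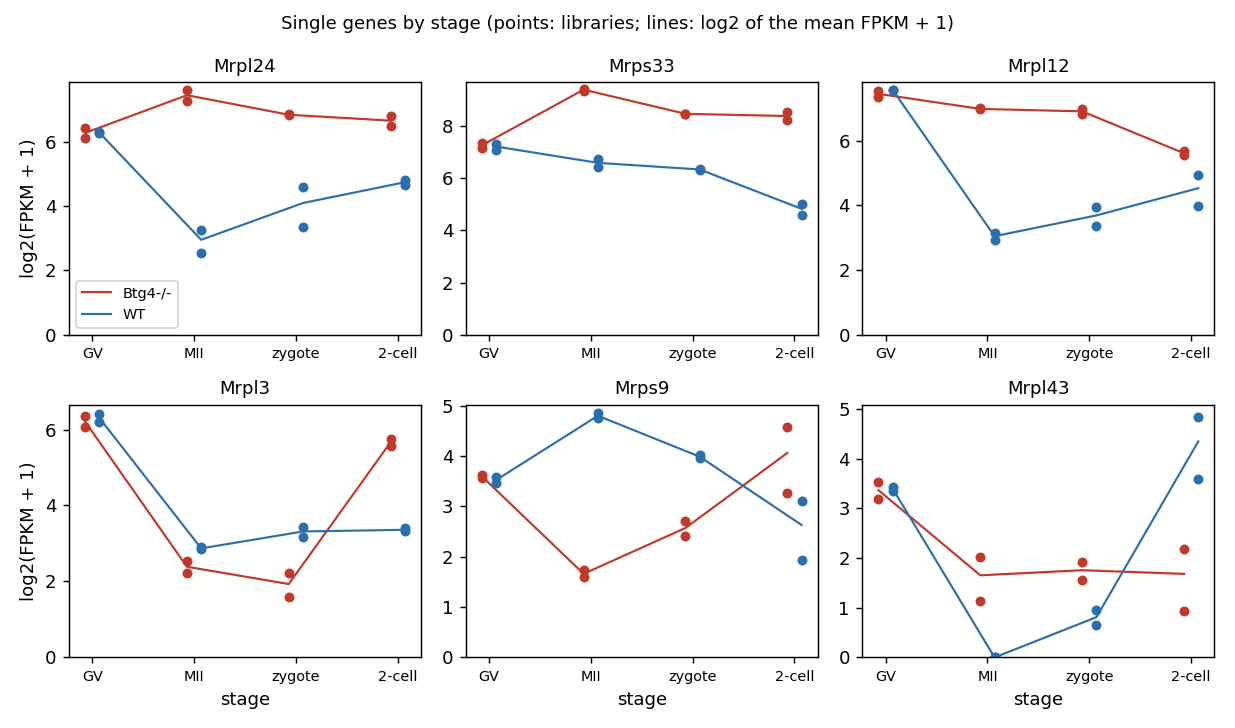
Level of 6 members, chosen after their values were seen, at the 4 stages as log2(FPKM + 1), with 1 point per library and lines through the log2 of the group mean plus 1, in Btg4-/- (red) and WT (blue). Mrpl24, Mrps33 and Mrpl12 are higher in Btg4-/- from MII on, while Mrpl3 and Mrps9 are lower in Btg4-/- zygotes and Mrpl43 is lower in Btg4-/- 2-cell embryos.

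Meiotic maturation was followed within each genotype. Between GV and MII, 20 members were higher, 22 lower and 34 not past the threshold in Btg4-/- oocytes, against 27.3% higher and 18.1% lower of all genes tested. In WT oocytes 5 were higher, 59 lower and 12 not past the threshold, against 25.2% higher and 28.5% lower of all genes tested. The median log2 change of the members was -0.28 in Btg4-/- and -2.07 in WT, beside 0.14 and -0.02 for all genes. On the deposited scale, which is relative to the library, the median member stood at 82.0% of its GV FPKM in Btg4-/- MII oocytes. In WT MII oocytes it stood at 21.0%. On the same scale 12 members in Btg4-/- and 42 in WT were under 25% of their GV FPKM. The test of the difference between genotypes in this step called 51 members higher and 1 lower in Btg4-/- (26.5% and 16% of all genes). Granulosa and cumulus markers summed to 67.6 to 83.1 FPKM in the 4 GV libraries (6 or 7 of 13 genes at 1 FPKM or more) and 5.1 to 14.3 FPKM in the 4 MII libraries, and their part in the steps was not tested. Scaling by the median ratio changed the Btg4-/- split to 11 higher and 36 lower, and without Btg4-/- GV library 2 the higher count was 11.

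**Figure D4:**
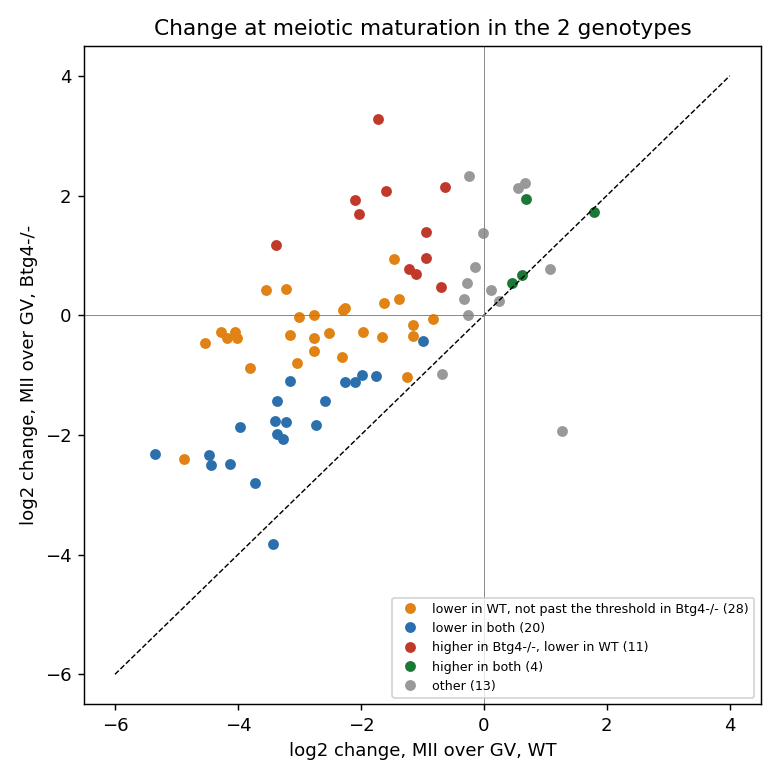
Log2 change between GV and MII of each member in WT (horizontal) and in Btg4-/- (vertical), coloured by the 2 limma calls, with the line of equal change dashed. Of the 76 genes, 28 were lower in WT without passing in Btg4-/-, 20 were lower in both, 11 were lower in WT and higher in Btg4-/-, and 4 were higher in both. The shares of all genes with these pairs of calls were not computed.

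The calls of the 2 genotypes sort the members into groups. How many of all genes show each pair of calls was not computed, so the group sizes are a description only. The 20 members lower at MII in both genotypes included Mrpl3, which was at 4.79 and 3.67 FPKM in Btg4-/- MII oocytes against 80.3 and 65.7 FPKM in Btg4-/- GV oocytes (log2 change -3.82, adjusted p = 2.18e-08). Mrpl46, Mrpl55 and Mrps22 followed in Btg4-/-, with log2 changes of -2.80, -2.50 and -2.49. The steepest changes in WT were those of Mrps18c, at 6.91 and 3.58 FPKM in WT MII oocytes against 262 and 226 FPKM in WT GV oocytes (log2 change -5.34), Mrpl52 (-4.87), Mrpl12 (-4.53) and Mrpl14 (-4.47). Mrpl14 was at 55.2 and 53.6 FPKM in WT MII oocytes against 1318 and 1136 FPKM in WT GV oocytes. Mrpl52 was listed at 0 in 1 WT MII library and at 13.9 FPKM in the other, and did not pass with only the compared groups fitted (adjusted p = 0.0813).

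The 11 members higher at MII in Btg4-/- and lower in WT were Mrpl16, Mrpl20, Mrpl24, Mrpl27, Mrpl32, Mrpl40, Mrpl48, Mrpl50, Mrps6, Mrps28 and Mrps33. Mrps33, a small-subunit protein without a bacterial counterpart, was at 657 and 695 FPKM in Btg4-/- MII oocytes against 164 and 142 FPKM in Btg4-/- GV oocytes (log2 change 2.14, adjusted p = 2.75e-07). Mrps6 had the largest log2 change in Btg4-/-, 3.28. Mrpl37 at 2.32 and Mrpl13 at 2.21 came next in Btg4-/- and did not pass in WT. FPKM is relative to the library, and absolute amounts were not measured. Mrpl9, Mrpl18, Mrpl44 and Mrpl45 were higher in both genotypes. Mrpl45, which anchors the ribosome to the inner membrane, was at 21.3 and 17.0 FPKM in WT MII oocytes against 6.62 and 3.39 FPKM in WT GV oocytes (log2 change 1.79, adjusted p = 0.000565). The calls in WT of Mrpl18 (log2 change 0.68), Mrpl44 (0.62) and Mrps9 (1.28) rested on single libraries: adjusted p was 0.064, 0.0715 and 0.0512 without WT GV library 1, 0.118 for Mrpl18 and 0.0711 for Mrps9 without WT MII library 2, 0.189 for Mrpl44 without WT MII library 1, and 0.0626 for Mrpl44 and 0.0725 for Mrps9 without WT GV library 2. Without WT GV library 1, 1 member was called higher in WT, and 2 without WT GV library 2 or WT MII library 2 and 3 without WT MII library 1.

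Zygotes resembled MII oocytes in the direction of the genotype difference. Of the 76 members, 53 were higher, 3 lower and 20 not past the threshold in Btg4-/- zygotes, against 24.4% higher and 23.3% lower of all genes tested. The median log2 change was 1.34 for the members and 0.01 for all genes. Their summed FPKM was 4559 and 4532 in Btg4-/- zygotes and 1787 and 1685 in WT zygotes. The MII and zygote comparisons share no library, and 49 members were higher in both, which is 92.5% of the 53 in zygotes and 86.0% of the 57 at MII. Over all genes tested, 19.2% were higher in both, which is 78.8% of those higher in zygotes and 65.9% of those higher at MII.

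Mrpl22, the counterpart of a bacterial protein lining the exit tunnel, had the largest difference in zygotes, at 116 and 122 FPKM in Btg4-/- and 5.95 and 3.65 FPKM in WT (log2 change 4.40, SE 0.40, adjusted p = 1.76e-06). Mrpl39 was at 33.0 and 29.6 FPKM in Btg4-/- zygotes and 2.04 and 2.59 FPKM in WT zygotes (log2 change 3.29, adjusted p = 6.09e-08). Mrpl12, Mrps31, Mrps28 and Mrpl14 had log2 changes of 3.25, 3.18, 3.15 and 3.04, and in each both Btg4-/- libraries were above both WT libraries.

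The 3 members lower in Btg4-/- zygotes were all counterparts of bacterial proteins. Mrpl9 was at 42.8 and 52.7 FPKM in Btg4-/- and 148 and 128 FPKM in WT (log2 change -1.52, SE 0.17, adjusted p = 1.19e-05). Mrpl9 shares exons with Oaz3. Mrpl3 was at 3.63 and 2.01 FPKM in Btg4-/- and 9.87 and 8.06 FPKM in WT (log2 change -1.41, adjusted p = 0.000165), and Mrps9 at 4.31 and 5.56 FPKM in Btg4-/- and 15.1 and 14.6 FPKM in WT (log2 change -1.42, adjusted p = 0.00936, which was 0.0658 without Btg4-/- zygote library 1). Mrpl44, Mrps5, Mrps21 and Mrps23 were the abundant members nearest to no change. Mrps23 was called lower with quantile normalization (log2 change -0.48, adjusted p = 0.0329), constant-sum scaling (-0.51, 0.0214) and the length correction (-0.66, 0.00624). Of the fixed set, Mrps36 was at 143 and 146 FPKM in Btg4-/- and 59.2 and 40.1 FPKM in WT, with an adjusted p of 0.0396 that was 0.194 without WT zygote library 2, 0.124 without Btg4-/- library 2, 0.119 without Btg4-/- library 1 and 0.0638 without WT library 1.

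In the step between MII and the zygote, fewer members were called than at maturation in both genotypes. The median log2 change in Btg4-/- was -0.42 for the members and 0.06 for all genes, with 16 of 76 members above 0. In WT the medians were 0.09 and 0.22, with 47 of 76 members above 0. The Btg4-/- medians were -0.63 and -0.03 with median-ratio scaling, and -0.07 and 0.07 with the length correction described below. In Btg4-/- none was higher and 7 lower, against 10.3% higher and 5.38% lower of all genes (limma; 22 members had an unadjusted p under 0.05). In WT 11 were higher and 9 lower, against 20.5% and 8.0% of all genes. Mrpl48 was at 224 and 225 FPKM in WT zygotes against 56.7 and 79.3 FPKM in WT MII oocytes (log2 change 1.73, adjusted p = 2.25e-05), and Mrps28 at 15.3 and 6.47 FPKM in WT zygotes against 41.4 and 46.2 FPKM in WT MII oocytes (log2 change -2.02, adjusted p = 0.00019, or 0.0882 with only the compared groups fitted). In Btg4-/- the largest falls were those of Mrps24, Mrps33, Mrpl9 and Mrpl2, with log2 changes of -1.40, -0.93, -0.85 and -0.79; adjusted p for Mrps24 was 0.109 without Btg4-/- zygote library 2 and 0.0673 without Btg4-/- MII library 2, and for Mrpl9 0.0586 without Btg4-/- zygote library 1 and 0.0555 without Btg4-/- MII library 2. Mrps33 did not pass with the length correction (log2 change -0.45, adjusted p = 0.109), nor did Mrps24 (0.0784), Mrpl9 (0.0682) or Mrpl2 (0.0688) with only the compared groups fitted. The difference between genotypes in this step was called higher for 1 member and lower for 10 (4.95% and 7.25% of all genes). Scaling by the median ratio gave 5 higher and 16 lower in WT and 17 lower in Btg4-/-. Leaving out WT MII library 2 gave 7 higher and 5 lower in WT, WT zygote library 1 gave 7 higher, and WT zygote library 2 gave 6 higher and 5 lower; in Btg4-/- the lower count was 4 without Btg4-/- MII library 2, 3 without Btg4-/- zygote library 2, and 12 without either WT zygote library.

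In 2-cell embryos the members divided. In Btg4-/- embryos 41 were higher, 8 lower and 27 not past the threshold, against 22.6% higher and 26.4% lower of all genes tested. The median log2 change was 0.88 for the members and -0.05 for all genes. Their summed FPKM was 3243 and 2883 in Btg4-/- 2-cell embryos and 1003 and 1190 in WT 2-cell embryos. Markers of embryonic genome activation summed to 5.2 and 11.6 FPKM in Btg4-/- (3 of 7 genes at 1 FPKM or more, 2 listed at 0) and 171 and 113 FPKM in WT (5 of 7 at 1 FPKM or more, 2 listed at 0), so the 2 groups also differed in that program, whose part in the result was not tested. Dividing each library by its summed FPKM, an alternative added after the data were seen, gave 28 members higher and 14 lower (14.7% and 40.2% of all genes), with a median of -0.46 for all genes and 0.36 for the members. The lower count was 5 without Btg4-/- library 2.

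Higher in Btg4-/- 2-cell embryos were Mrpl53 at 187 and 193 FPKM, against 14.7 and 14.5 FPKM in WT (log2 change 3.61, SE 0.12, adjusted p = 6.33e-10), and Mrpl32, the L32 counterpart, at 280 and 309 FPKM, against 21.0 and 32.4 FPKM in WT (log2 change 3.44). Mrpl53 shares exons with Gm42688 on the same strand and with Ccdc142os on the opposite strand. Mrps33 was at 372 and 298 FPKM in Btg4-/- and 23.4 and 31.5 FPKM in WT (log2 change 3.57). Mrpl14 and Mrpl16 had log2 changes of 3.76 and 3.47, and Mrpl39 one of 3.24; with only the compared groups fitted, Mrpl14 had an adjusted p of 0.0521. Mrps31 was at 54.2 and 33.3 FPKM in Btg4-/- embryos, and in WT embryos it was listed at 0 in 1 library and at 0.203 FPKM in the other. Mrps10 was at 4.26 and 10.9 FPKM in Btg4-/- and listed at 0 in both WT libraries, so no fold is given for it.

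Mrpl3 changed side between the zygote and the 2-cell stage. It was at 53.3 and 46.3 FPKM in Btg4-/- 2-cell embryos and 9.57 and 8.96 FPKM in WT 2-cell embryos, a log2 change of 2.30 (SE 0.22, adjusted p = 2.43e-06). Within Btg4-/- its log2 change between zygote and 2-cell embryo was 3.76 (adjusted p = 3.88e-08), and Mrps9, Mrpl9 and Mrpl10 also rose there, by 1.35, 1.19 and 1.08 on the log2 scale. The call for Mrps9 in this step had an adjusted p of 0.0131, which was 0.161 without Btg4-/- 2-cell library 1 and 0.0825 without Btg4-/- zygote library 1. Mrpl44 was likewise higher in Btg4-/- 2-cell embryos, at 34.7 and 34.0 FPKM against 6.69 and 9.08 FPKM in WT (log2 change 2.01).

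The 8 members lower in Btg4-/- 2-cell embryos were Mrpl41, Mrpl43, Mrpl46, Mrpl49, Mrpl51, Mrps11, Mrps30 and Mrps34, of which Mrps11 alone has a bacterial counterpart. Mrpl43 was at 0.902 and 3.52 FPKM in Btg4-/- and 11.1 and 27.6 FPKM in WT (log2 change -2.67, SE 0.46, adjusted p = 0.000352), and shares exons with Twnk, the gene of the mitochondrial helicase. Mrps11 was at 1.09 and 0.472 FPKM in Btg4-/- and 8.61 and 6.47 FPKM in WT (log2 change -2.27, adjusted p = 2.55e-05), and Mrpl41 at 0.736 and 0.879 FPKM in Btg4-/- and 5.29 and 10.1 FPKM in WT (log2 change -2.21). Mrps30 was at 6.56 and 9.05 FPKM in Btg4-/- and 17.5 and 30.6 FPKM in WT (log2 change -1.47, adjusted p = 0.000221). Mrps34, whose loss in mice impairs mitochondrial translation, was listed at 0 in both Btg4-/- libraries and at 2.47 and 2.35 FPKM in WT. Several of these calls were lost under other settings. With only the compared groups fitted, adjusted p was 0.0714 for Mrpl43 and 0.0621 for Mrps30. Without Btg4-/- library 2, adjusted p was 0.115 for Mrpl46, 0.195 for Mrpl49 and 0.0811 for Mrpl51. Without WT library 2 it was 0.165 for Mrpl46 and 0.115 for Mrpl49, and Mrpl51 had 0.0799 without Btg4-/- library 1 and 0.151 without WT library 1. Of the 8, Mrpl41, Mrpl43, Mrpl49, Mrpl51, Mrps11 and Mrps30 had been higher in Btg4-/- at MII, a pair of calls that 5.67% of all genes showed.

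Between zygote and 2-cell embryo 7 members were higher and 36 lower in Btg4-/-, against 18.3% and 28.2% of all genes, and 16 were higher and 31 lower in WT, against 27.1% and 30.2% of all genes. The largest rises in WT were those of Mrpl43, Mrpl49, Mrpl20 and Mrpl41. Mrpl43 was at 11.1 and 27.6 FPKM in WT 2-cell embryos against 0.929 and 0.580 FPKM in WT zygotes (log2 change 3.41, adjusted p = 3.28e-05), and Mrpl20 at 22.0 and 33.8 FPKM in WT 2-cell embryos against 3.29 and 2.57 FPKM in WT zygotes (log2 change 2.85). Mrps36 had the largest fall in both genotypes, to 3.94 and 6.36 FPKM in Btg4-/- 2-cell embryos against 143 and 146 FPKM in Btg4-/- zygotes, and to 5.23 and 0 FPKM in WT 2-cell embryos against 59.2 and 40.1 FPKM in WT zygotes. The log2 changes of Mrps36 were -4.59 in Btg4-/- and -4.32 in WT; the gene has 3 annotated pseudogenes among which reads may be split. Mrps5, Mrpl16 and Mrps35 followed among the falls in WT, and Mrps11, Mrpl33 and Mrpl22 in Btg4-/-. The call for Mrpl33 in Btg4-/- (adjusted p = 0.014) was lost without Btg4-/- 2-cell library 2 (0.189), Btg4-/- zygote library 1 (0.0565) or Btg4-/- zygote library 2 (0.0639). The difference between genotypes in this step was called higher for 16 members and lower for 21 (22.2% and 25.9% of all genes).

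**Figure D5:**
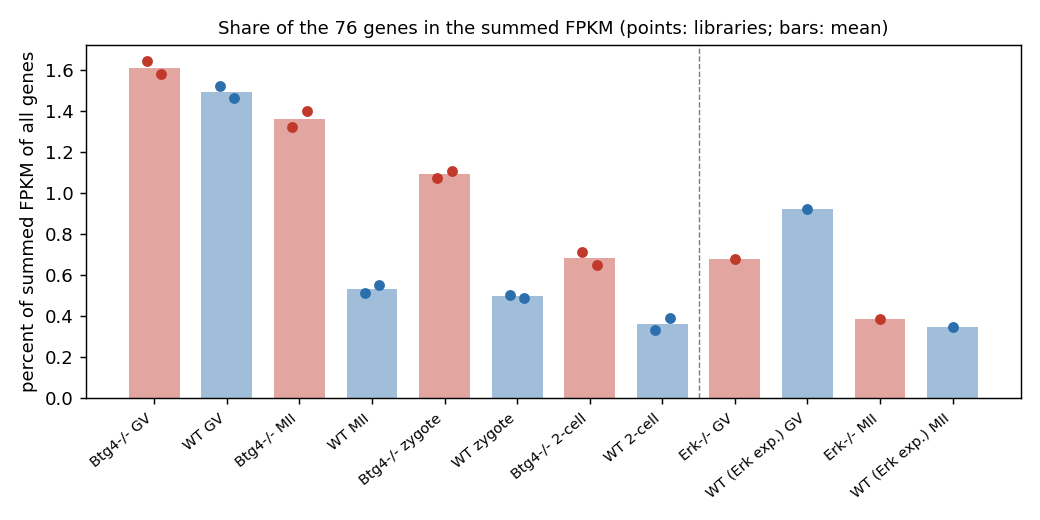
Percent of the summed FPKM of all genes that falls on the 76 genes, by group, with 1 point per library and bars at the group mean; Btg4-/- and Erk-/- groups are red, WT groups blue, and the dashed line separates the experiments. The share is 1.46% to 1.64% in the 4 GV libraries of the Btg4 experiment, at least 1.32% in Btg4-/- MII oocytes and at most 0.554% in WT MII oocytes.

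Across stages, 33 members were higher in Btg4-/- at MII, in zygotes and in 2-cell embryos, as were 8.64% of all genes tested. By 2-cell the median member stood at 40.7% of its GV level in Btg4-/- and 20.5% in WT, and the summed FPKM at 40.9% in Btg4-/- and 15.9% in WT. The 13 members that were higher at MII and in zygotes but did not pass in 2-cell embryos (7.20% of all genes) included Mrpl20, Mrpl22, Mrpl27, Mrpl33, Mrps6 and Mrps7. These comparisons of counts across stages rest on different libraries at each stage, and a member that did not pass is not shown to be equal.

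Both subunits and both evolutionary classes took part. At MII 35 of 47 Mrpl and 22 of 29 Mrps genes were higher in Btg4-/-, with median log2 changes of 1.68 and 1.70, where 29.1% of all genes were higher and 23.3% lower. Of 30 large-subunit proteins with a bacterial counterpart 22 were higher and none lower, and of 18 large-subunit proteins specific to mitochondria 14 were higher and none lower. In the small subunit, 12 of 15 with a bacterial counterpart were higher and 1 lower, and 6 of 9 specific to mitochondria were higher. In 2-cell embryos 14 of 30 large-subunit proteins with a bacterial counterpart were higher and none lower, while of the 18 specific to mitochondria 10 were higher and 6 lower (22.6% and 26.4% of all genes).

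Lengths and overlapping genes bear on these values. The members are short, with a median coding length of 582 bases against 1311 bases for all genes tested. Removing the trend of log2(FPKM + 1) on coding length within each library lowered the median change at MII to 1.19, and 49 members were then higher and 5 lower, against 31.0% and 23.4% of the 11637 genes with a length and a median of 0.12 over them. In zygotes 44 were then higher and 5 lower (25.8% and 22.8% of genes), and in 2-cell embryos 37 higher and 10 lower (24.7% and 25% of genes). Across the 76 genes the change at MII had a Spearman rho of -0.23 with coding length, given as a description across genes that share libraries. Exons of 25 members overlap another gene in GENCODE M21, including Mrpl12, Mrpl33, Mrps18b, Mrps18c and Mrps30, whose overlaps are not named above. Among the other 51, 38 were higher and 1 lower at MII (29.1% and 23.3% of all genes), 35 higher and 2 lower in zygotes (24.4% and 23.3%), and 30 higher and 4 lower in 2-cell embryos (22.6% and 26.4%).

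Proteins of the mitochondrial ribosome with other symbols were also mostly higher at MII: of 7, 6 were higher and 1 lower in Btg4-/- oocytes, with a median log2 change of 2.79, beside 29.1% and 23.3% of all genes. Gadd45gip1 was at 147 and 163 FPKM in Btg4-/- and 14.4 and 12.9 FPKM in WT (log2 change 3.41, adjusted p = 5.51e-09), and Chchd1 had a log2 change of 3.16 and Aurkaip1 one of 2.79. The exception was Ptcd3, a pentatricopeptide repeat protein of the small subunit, at 1.30 and 1.94 FPKM in Btg4-/- and 13.3 and 15.1 FPKM in WT (log2 change -2.55, adjusted p = 5.62e-06). In zygotes 6 of 7 were again higher and Ptcd3 lower, and in 2-cell embryos 6 were higher and none lower.

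Of 12 mitochondrial translation factors 7 were higher and 2 lower at MII, where 29.1% of all genes were higher and 23.3% lower. Tufm, the elongation factor that delivers tRNA, was at 7.56 and 17.2 FPKM in Btg4-/- and 1.35 and 1.21 FPKM in WT (log2 change 2.45), and the release factor Mtrf1 at 25.6 and 25.5 FPKM in Btg4-/- and 2.31 and 0.903 FPKM in WT (log2 change 3.40). Gfm1, the elongation factor of translocation, was lower at 3.82 and 3.04 FPKM in Btg4-/- and 29.6 and 37.1 FPKM in WT (log2 change -2.95, adjusted p = 7.61e-07), as was Tsfm, the exchange factor of Tufm, with a log2 change of -2.01. Both were lower in Btg4-/- zygotes too, with log2 changes of -2.67 and -1.48, and Tsfm was higher in Btg4-/- 2-cell embryos, at 49.1 and 38.8 FPKM against 10.3 and 8.88 FPKM in WT.

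Of 22 genes for assembly of the ribosome and modification of its RNA, 10 were higher and 5 lower at MII, against the same 29.1% and 23.3% of all genes, so that the lower share is near that of all genes. Tfb1m, a methyltransferase of the small rRNA, was at 88.0 and 95.2 FPKM in Btg4-/- and 4.36 and 3.32 FPKM in WT (log2 change 4.26), while Rpusd4, a pseudouridine synthase, was at 1.39 and 0.636 FPKM in Btg4-/- and 15.9 and 12.2 FPKM in WT (log2 change -2.92). Of 9 genes for mitochondrial transcription, RNA stability and DNA replication, 4 were higher and none lower at MII, among them Slirp, Polrmt and Tefm. Of 16 mitochondrial aminoacyl-tRNA synthetase genes tested, 9 were higher and none lower, led by Rars2 with a log2 change of 3.22. In 2-cell embryos the genes for transcription, RNA stability and DNA replication had 1 higher (Lrpprc) and 4 lower. Those lower included Tfb2m and the DNA replication genes Peo1 and Polg2. Peo1 is the older symbol of Twnk, whose exons overlap those of Mrpl43. The lower calls of Peo1 and Mrpl43 may therefore share reads, which was not tested. The synthetases had 2 higher and 2 lower, and the assembly genes 9 higher and 4 lower, against 22.6% and 26.4% of all genes. At GV, none of the 7 other ribosomal proteins, 12 translation factors or 9 genes for transcription, RNA stability and DNA replication passed. At that stage 3 of 22 assembly genes were lower, and 1 of 16 synthetases was higher and 1 lower, against 1.45% and 6.46% of all genes.

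In the Erk experiment each group was 1 library, so no test was made and a difference of at least 1 on the log2(FPKM + 1) scale is called past the fold. The members' summed FPKM was 2867 in Erk-/- GV oocytes and 4179 in WT GV oocytes, and 1608 in Erk-/- MII oocytes and 1403 in WT MII oocytes. At GV 13 of 76 were higher past the fold and 26 lower in Erk-/-, against 18.7% and 23.5% of 11404 genes. At MII 32 were higher and 7 lower, against 30.7% and 8.08% of genes. The median log2 difference at MII was 0.75 for the members and 0.26 for all genes, and at GV -0.48 and -0.01. Between GV and MII 14 were higher and 36 lower in Erk-/- (23.9% and 33.4% of genes), and 6 were higher and 50 lower in WT (20.4% and 46.9% of genes). The median difference between MII and GV was -0.74 for the members and -0.09 for all genes in Erk-/-, and -2.58 for the members and -0.76 for all genes in WT. The median member in WT MII oocytes of this experiment stood at 2.99 FPKM, and 24 of 76 members were listed at 0 there, against 3 in Erk-/- MII oocytes, 7 in Erk-/- GV oocytes and 6 in WT GV oocytes. That library also had the fewest gene symbols at 1 FPKM or more, 7265, though its estimated depth was the highest. The others had 8927 in Erk-/- MII, 8909 in Erk-/- GV and 9253 in WT GV oocytes. The part of this lower detection in the members' differences was not tested.

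Single values in that experiment were often listed at 0. At MII 32 members were higher past the fold and 7 lower in Erk-/-. Among members with values above 0 in both MII libraries, the largest falls in Erk-/- were those of Mrpl54, Mrpl53 and Mrpl14. Mrpl54 was at 0.217 FPKM in Erk-/- and 20.2 FPKM in WT, Mrpl53 at 34.4 and 103 FPKM, and Mrpl14 at 32.2 and 93.4 FPKM. The largest rises among such members, chosen after their values were seen, were those of Mrps18b, Mrpl51 and Mrpl4. Mrps18b was at 23.6 FPKM in Erk-/- and 2.20 FPKM in WT, Mrpl51 at 7.59 and 0.131 FPKM, and Mrpl4 at 34.2 and 4.98 FPKM. Mrps24, Mrpl33, Mrpl20 and Mrps12, at 29.0, 12.2, 10.4 and 10.2 FPKM in Erk-/- MII oocytes, were all listed at 0 in WT MII oocytes. At GV, Mrps12 was at 123 FPKM in Erk-/- and 0.178 FPKM in WT, and Mrpl3 and Mrps28 were at 30.6 and 15.8 FPKM in Erk-/- and listed at 0 in WT. Mrpl42, Mrpl36, Mrpl47 and Mrps11 were listed at 0 in Erk-/- GV oocytes and at 63.1, 44.3, 33.0 and 23.6 FPKM in WT GV oocytes. Between GV and MII, Mrps22 stood at 0.691 FPKM in Erk-/- MII oocytes against 128 FPKM in Erk-/- GV oocytes, and at 0.930 FPKM in WT MII oocytes against 60.9 FPKM in WT GV oocytes. Mrps6 stood at 63.7 FPKM in Erk-/- MII oocytes against 2.89 FPKM in Erk-/- GV oocytes, and at 19.9 FPKM in WT MII oocytes against 19.0 FPKM in WT GV oocytes.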

How the data were processed

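Paired-end RNA-seq files were analysed as deposited: FPKM per gene, which the authors made with CASAVA 1.8, TopHat and Cufflinks on mm9, per the submitters' processing notes; the sources used here give no other version and no annotation. FPKM depends on transcript length and on everything else in the library. Loci of 1 symbol were summed (260 symbols). The 76 genes, the gene lists and the tests were chosen with earlier results of these data known. Tests used limma 3.58.1 in R 4.3.3 on log2(FPKM + 1), which understates changes of low genes, with a group-means model over 16 libraries (8 residual degrees of freedom) and a variance trend. Genes needed a group mean of at least 1 FPKM in at least 1 of 8 groups; 12311 genes and all 76 members passed. Two-sided p-values were corrected over all 12311 genes (Benjamini-Hochberg), and calls needed an adjusted p under 0.05. In 2 against 2 libraries an exact permutation test cannot go below 0.333. The calculation was tested on simulated data. Errors are standard errors of the log2 change. Deposited intervals around each FPKM gave the depth estimates and cover counting error only.

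Named genes were the 8 largest changes in each direction per genotype comparison, the 4 largest per stage step or Erk contrast, a fixed set of 13 (Mrps18a, Mrps18b, Mrps18c, Mrps30, Mrps36, Mrpl12, Mrps12, Mrps22, Mrps16, Mrpl3, Mrpl44, Mrps34 and Mrps5), the extremes of mean level, the 3 largest changes in each pathway list and 4 abundant members nearest to no change. Members chosen otherwise are said to be. Alternatives were another pseudocount (0.1), no filter or one at 5 FPKM, median-ratio, quantile and constant-sum scaling (the last chosen after seeing the data), a length correction (coding lengths from GENCODE M21 for 94.5% of genes), a replicate block, the compared groups alone, and each library left out. Genes on the plots of single members were picked after their values were seen. The level of the targeted gene in the Erk experiment is not reported here.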

Additional observations from a re-analysis of the deposited data

Results flagged for a closer look

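The following results were singled out because the change over a stage step differed between Btg4-/- and WT by a test of the difference itself (limma, 12311 genes). In the step between GV and MII, 51 members were higher and 1 lower in Btg4-/- relative to WT (26.5% and 16% of all genes). In the step between MII and the zygote, 1 was higher and 10 lower (4.95% and 7.25% of all genes). In the step between zygote and 2-cell embryo, 16 were higher and 21 lower, which is near the shares of all genes (22.2% and 25.9%). Between GV and MII, Mrpl4 had a log2 difference of 1.66 (adjusted p = 6.98e-05) and Mrpl40 one of 2.32 (adjusted p = 1.02e-05). Both were called lower in Btg4-/- at GV and higher at MII, but neither GV call was kept under several other settings. For Mrpl4 and Mrpl40 at GV, limma adjusted p was 0.117 and 0.121 with median-ratio scaling and 0.0981 and 0.104 with quantile normalization. It was 0.089 and 0.183 with only the compared groups fitted. Between zygote and 2-cell embryo, Mrpl3, Mrpl9 and Mrps9 had log2 differences of 3.72, 3.67 and 2.82 (adjusted p = 1.19e-06, 2.11e-07 and 0.00111). In the same step Mrpl49, Mrps11 and Mrps30 had log2 differences of -2.72, -3.93 and -2.65 (adjusted p = 0.000962, 5.82e-06 and 3.5e-05).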

How the results depend on the processing

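Counts are members called, higher then lower in the first group named. Depth limits the genes near 0, and 2 libraries per group limit all calls. The higher counts at MII and in zygotes stayed within 1.5 times of 57 and 53 under every alternative. At GV (0 and 2), 1 was higher with a filter at 5 FPKM and 1 with median-ratio scaling; 1 was lower with no filter and 0 with median-ratio scaling, quantile normalization or only the compared groups. At MII the lower count of 1 became 2 with median-ratio scaling, 4 with quantile or constant-sum scaling, 5 with the length correction and 2 with the replicate block. In zygotes the lower count of 3 became 5 with the length correction or constant-sum scaling. In 2-cell embryos the higher count of 41 became 26 with only the compared groups, and the lower count of 8 became 5 with no filter, 4 with only the compared groups and 14 with constant-sum scaling. Between GV and MII in WT the higher count of 5 became 3 with no filter or only the compared groups and 8 with the length correction; in Btg4-/- 20 became 11 with median-ratio and 12 with quantile scaling, and the lower 22 became 36 with median-ratio scaling. Between MII and zygote in WT the higher 11 became 7 with no filter, 5 with median-ratio or quantile scaling and 3 with only the compared groups, and the lower 9 became 5 with no filter, 16 with median-ratio scaling, 13 with quantile scaling and 3 with only the compared groups. In Btg4-/- the lower 7 became 12 with a filter at 5 FPKM, 17 with median-ratio scaling and 3 with the length correction. The genotype difference between GV and MII had 2 lower with the length correction. That between MII and zygote had 2 higher with a filter at 5 FPKM, median-ratio scaling or only the compared groups, 3 with constant-sum scaling, 4 with the length correction and 6 with quantile scaling, and 5 lower with no filter and 6 with quantile scaling. With median-ratio scaling, 12 members were lower past the fold in Erk-/- at MII and 11 were higher between GV and MII in the WT of that experiment, and mean summed FPKM was 9254.0, 6001.0, 3595.8 and 2789.4 in Btg4-/- GV, MII, zygote and 2-cell libraries and 1430.2 in WT zygotes. The cause of these shifts was not tested.

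Leaving out 1 library at a time gave 0 to 2 higher and 0 to 3 lower at GV, 53 to 59 and 1 to 2 at MII, 44 to 53 and 2 to 3 in zygotes, and 34 to 44 and 5 to 10 in 2-cell embryos. In the step between GV and MII it gave 11 to 22 and 16 to 24 in Btg4-/- and 1 to 5 and 54 to 60 in WT. Between MII and zygote it gave 0 and 3 to 12 in Btg4-/- and 6 to 16 and 5 to 10 in WT. Between zygote and 2-cell embryo it gave 5 to 7 and 26 to 38 in Btg4-/- and 12 to 19 and 27 to 34 in WT. The genotype differences had 43 to 53 and 1, 1 to 2 and 5 to 11, and 14 to 17 and 18 to 25 in the 3 steps in order. The GV lower count was 0 without Btg4-/- GV library 2 or either WT GV library, and the lower count between MII and zygote in the genotype difference was 6, 6 and 5 without Btg4-/- MII library 2, WT MII library 2 and Btg4-/- zygote library 2. Summed FPKM ranged from 6926.1 to 8061.7, 6316.9 to 6604.6, 4532.4 to 4559.1 and 2882.6 to 3243.4 in Btg4-/- GV, MII, zygote and 2-cell libraries, and from 6653.9 to 7161.7, 1832.3 to 2103.8, 1684.7 to 1786.6 and 1002.6 to 1189.8 in WT.

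Members that changed sign had not passed the test. At GV, Mrpl24 was 0.22, Mrps36 0.03, Mrpl12 0.12, Mrpl3 0.14 and Mrps5 0.13 with median-ratio scaling, Mrpl24 0.04 and Mrps5 0.08 with quantile scaling, and Mrps14 -0.03 with the length correction. At MII, Mrps14 was -0.10 with median-ratio, -0.35 with quantile and -0.34 with constant-sum scaling, and -0.66 with the length correction, where it passed. Mrps5 was -0.16 with quantile and -0.15 with constant-sum scaling, Mrps26 -0.14 with either and -0.32 with the length correction, and Mrps34 -0.00 with quantile scaling and -0.49 with the length correction. In zygotes Mrps21 was -0.22 with the length correction. In 2-cell embryos Mrps6 was -0.11, -0.25 and -0.45 with quantile scaling, the length correction and constant-sum scaling, Mrpl10 -0.09 and -0.23 with quantile and constant-sum scaling, and Mrps22 -0.04 with constant-sum scaling. Over the libraries left out, further values that crossed 0 or reached it ranged at GV from -0.10 to 0.13 for Mrps30, -0.17 to 0.13 for Mrpl24, -0.11 to 0.15 for Mrps31, -0.07 to 0.12 for Mrps14, -0.24 to 0.04 for Mrpl3 and -0.22 to 0.02 for Mrps5, at MII from -0.10 to 0.13 for Mrps14, in zygotes from 0.00 to 0.69 for Mrps34, and in 2-cell embryos from -0.23 to 0.45 for Mrps6, -0.48 to 0.12 for Mrpl20, -0.62 to 0.10 for Mrpl34, -0.07 to 1.36 for Mrps18a, -0.05 to 2.59 for Mrps36 and -0.04 to 0.97 for Mrps22.

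The difference between library 1 and library 2 correlated weakly between groups (-0.015 to 0.126 over genes). Such values show no strong pairing by number, but they cannot exclude pairing or a shared batch. Single genes did differ by library number, such as Mrpl47, which was higher in replicate 2 in 7 of 8 groups. With the replicate block, 140 of the named values kept their direction and their side of the threshold, Mrpl3 at MII newly passed as lower, and the lower count at MII was 2.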

Other observations

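Mrpl47, chosen after its values were seen, was higher in replicate 2 than in replicate 1 in 7 of 8 groups of the Btg4 experiment, with a median log2 difference of 1.09 between the libraries of a group. It was at 18.7 and 57.4 FPKM in Btg4-/- MII oocytes and 29.2 and 72.9 FPKM in WT MII oocytes. In zygotes it was at 13.9 and 42.2 FPKM in Btg4-/- and 33.3 and 62.6 FPKM in WT. Exons of Mrpl47 overlap Actl6a and Ndufb5.

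Mrpl3 was at 6.18 and 6.44 FPKM in the WT MII oocytes of the Btg4 experiment and 78.4 FPKM in the WT MII library of the Erk experiment, while at GV it was listed at 0 in the WT library of the Erk experiment. The experiments were not compared by a test.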
